A study of Equus caballus with 4 samples.

Results

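Expression of 6 cytokine genes was read in equine sarcoids, the locally invasive fibroblastic skin tumours of horses: IL4, IL6, IL10, IL18, IFNG and TNF. Their probes were found by the RefSeq transcript that the array files give for each probe, matched to the horse gene table, which yielded 28 of the 43603 probes on the array. IL4 had 17 probes (transcript NM_001082519), IL10 had 5 (NM_001082490), IFNG had 3 (NM_001081949), and IL6 (NM_001082496), IL18 (NM_001082512) and TNF (NM_001081819) had 1 each. Each of 4 horses gave a sarcoid and a sample of skin distant from the tumour, and both RNAs of a horse were hybridised to 1 two-colour array, the sarcoid in Cy3 and the skin in Cy5. The ratio of sarcoid over skin is therefore a difference within a horse. The labels give no age, breed or treatment of the horses, and name no pooling. All 4 arrays lay on 1 slide, and with 0 dye swaps the effect of the dye on a probe and the tissue difference cannot be told apart. The material was bulk tissue kept in RNAlater. P-values set a mean against the spread between the 4 horses, which limma moderates toward the spread of all targets or probes tested.

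These cytokines carry signals between immune cells and the cells of a tissue. TNF, IL6 and IL18 are inflammatory; IL18 is made as an inactive precursor, which caspase 1 cleaves in the inflammasome, and keratinocytes of the epidermis hold a store of it. IFNG and IL4 are the signature cytokines of type 1 and type 2 helper T cells, and IL10 restrains inflammation and is made by T cells, macrophages and other leukocytes. Sarcoids are associated with bovine papillomaviruses, and the dermal fibroblasts are the cells that multiply in them.

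In each channel 67.2% to 80.7% of spots passed the scanner's test for being well above background and 0 were saturated. Precision is limited by there being 4 arrays. Marker lists describe the tissues but cannot check their labels, since the lists were chosen with earlier results of these data known. All 8 measured fibroblast genes of a list of 13 were higher in the sarcoids (median log2 ratio 2.60). Both measured keratinocyte genes of a list of 12 were lower, KRT15 (a keratin of basal cells) at -5.12 ± 0.11 and S100A7 (an antimicrobial protein) at -5.12 ± 0.36 (SD, n = 4). The 8 fibroblast genes were LUM at 4.24, BGN at 3.06, COL14A1 at 3.04, SPARC at 2.99, TBX15 at 2.22, COL5A2 at 2.05, DCN at 1.84 and VIM at 1.58; for COL14A1 the mean of all its probes was lower, at 1.73. These 8 stayed above 0 in every alternative. Where normexp was fitted on all spots, COL14A1, COL5A2, SPARC, TBX15, VIM and the keratinocyte gene S100A7 did not pass (limma adjusted p from 0.0519 to 0.264). DCN and VIM did not pass with median centring (0.0686 and 0.104), SPARC without horse 1, 2 or 3 (0.0651, 0.051 and 0.0551), and TBX15 without horse 1 or 4 (0.0679 and 0.0674). ACTB and GAPDH, often used as internal standards, had log2 ratios of -0.34 and 0.27 and did not pass the test (limma adjusted p = 0.313 and 0.433).

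One cytokine of the 6, IL10, was higher in the sarcoids, and the other 5 were not called. IL10 was about 1.42-fold higher in the sarcoids than in skin, or 2.23-fold by the scanner software's own signals. By both measures it was higher in every horse and with every probe. Before background subtraction and scaling of the dyes, horse 4 had the brighter IL10 spots in skin. IL18 was lower in the sarcoids of horses 1 to 3 and higher in the sarcoid of horse 4. TNF had a bright spot in both tissues with no common direction, IL6 was dim in both, IFNG was at the edge of detection and nearly all IL4 spots were below it. A test was possible for the 5 genes with a probe detected well over background in 3 or more sarcoids or 3 or more skin samples, through 9 of the 28 probes. Of these genes 1 was called higher and 0 lower with limma at a Benjamini-Hochberg adjusted p under 0.05, and 2 of the 5, IL10 and IL18, had an unadjusted p under 0.05. Over all 19607 targets tested, 5.84% were called higher and 9.9% lower in the sarcoids. The share of all targets at an unadjusted p under 0.05 was not counted, but it cannot be less than the 15.7% called in either direction. Counts at an unadjusted p, here and below, are therefore descriptions only.

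**Figure D1:**
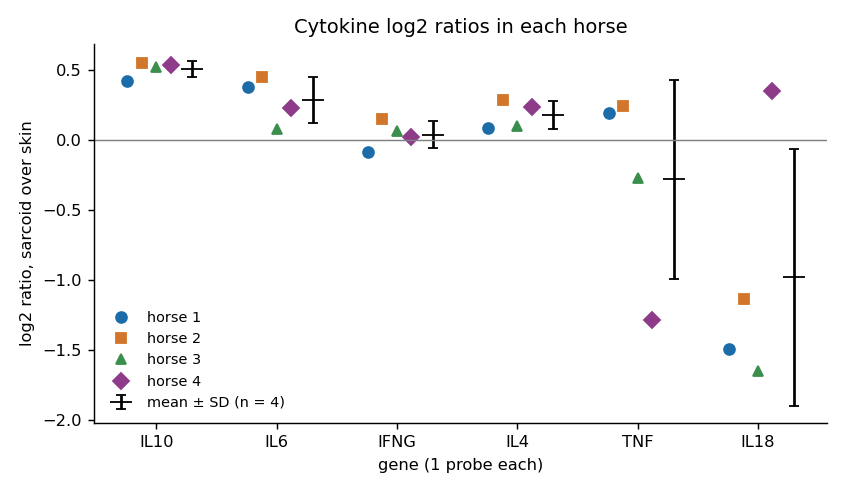
Log2 ratio of sarcoid over skin (y axis) for 1 probe of each cytokine (x axis), with 1 marker for each horse and the mean ± SD of 4 horses in black. The 4 IL10 values lie between 0.42 and 0.55, while IL18 and TNF each have horse 4 apart from the other 3.

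For IL10, the anti-inflammatory member, the processed signals are given first, which the scanner software subtracts for background and scales between the dyes. At probe A_69_P001088, the brightest of the 5, the processed signal was 251, 166, 264 and 98.3 in the sarcoids of horses 1 to 4, against 120, 70.4, 136 and 38.02 in their skin. By these signals the sarcoid was the brighter tissue in each horse. The ranges of the tissues overlapped, since the skin of horse 3 exceeded the sarcoid of horse 4. Before background subtraction and dye scaling, horse 4 had the brighter spot in skin at every IL10 probe. At A_69_P001088 its spot signal was 111 in the sarcoid and 120 in the skin. The median spot signal of that array was 113.5 in the sarcoid channel and 236 in the skin channel. After normexp background correction with an offset of 50 and loess, the log2 ratios at that probe were 0.42, 0.55, 0.52 and 0.53, with a mean of 0.51 ± 0.06 (SD, n = 4; limma adjusted p = 0.0323 over all targets). From the processed signals the same probe had a mean log2 ratio of 1.16 ± 0.18, the largest under any alternative, and the limma adjusted p was 0.0119. With a normexp offset of 10 in place of 50 it was 0.72, so the size of the IL10 difference depends on the background treatment.

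The other 4 IL10 probes gave like values. At A_69_P001086 the processed signal was 241, 159, 220 and 114 in the sarcoids, against 108, 80.1, 103 and 50.1 in the skin. At A_69_P001087 it was 222, 162, 234 and 98.1 in the sarcoids, against 93.8, 70.6, 74.7 and 44.4 in the skin. Each of the 40 spots in the 2 channels was well above background, and all 20 ratios of 5 probes and 4 horses were above 0, from 0.29 to 0.81. The spots were dim all the same, from 96 to 194 in the sarcoids and from 86.5 to 154 in the skin before background subtraction. The probe means ran from 0.41 to 0.57, and from 1.11 to 1.41 by processed signals. The SD over the horses was wider at the other 4 probes than the 0.06 of A_69_P001088. It was 0.10 at A_69_P001086, 0.16 at A_69_P001087, 0.14 at A_69_P001089 and 0.11 at A_69_P001090. In the limma fit with every kept probe as its own feature, 4 of the 5 passed (adjusted p from 0.0324 to 0.0459) and A_69_P001089 did not (0.0742); 6.97% of the 33864 probes tested were called higher and 11.2% lower. The 5 probes read 1 transcript and are not independent replicates.

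**Figure D2:**
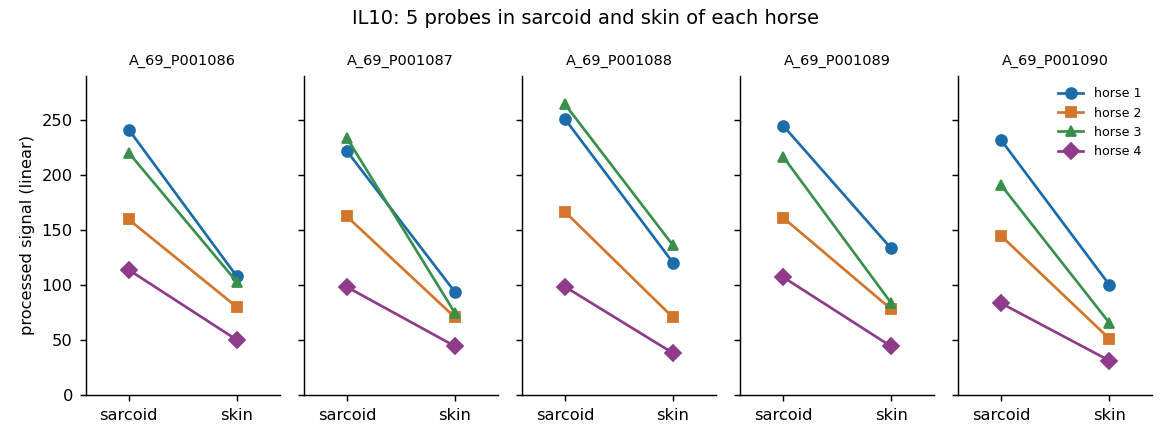
Processed signal of each IL10 probe (linear scale, y axis) in the sarcoid and the skin, with a line for each horse. All 20 lines fall from sarcoid to skin, and horse 4 has the dimmest sarcoid at every probe.

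The IL10 call needed all 4 horses. Leaving out 1 horse at a time gave log2 ratios between 0.49 and 0.53 and limma adjusted p-values of 0.104 (horse 1 out), 0.132 (horse 2), 0.0898 (horse 3) and 0.0793 (horse 4). The adjusted p was 0.339 with a log2 ratio of 0.27 where normexp was fitted on all spots and outlier spots were left out afterwards. Among the 43803 probe spots of each array, 14, 33, 47 and 6 were outliers in horses 1 to 4, and no IL10 spot was among them.

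Cells that make IL10 could be followed only through a few named probes. Of 12 macrophage and dendritic cell genes 4 were measured, and CSF1R, the receptor for colony stimulating factor 1, was higher in the sarcoids at 1.24 ± 0.51 (SD, n = 4; limma adjusted p = 0.0199). CD14, a co-receptor for lipopolysaccharide, stood at 1.14 ± 1.12 and CD68, a lysosomal protein of macrophages, at 0.35 ± 0.21, and neither passed, although 3 of the 4 genes had an unadjusted p under 0.05 in limma. The CSF1R call was lost without horse 2 or horse 3 (limma adjusted p = 0.0676 and 0.0503), with median centring (0.0762) and where normexp was fitted on all spots (0.265). CD14 passed without horse 3, at 1.66 (0.0291). The summed processed signal was between 13060 and 33050 in the sarcoids and between 7245 and 15160 in the skin, and each of the 4 genes was well above background on every array. Of 17 T and NK cell genes 3 were measured and 0 passed in limma, 1 at an unadjusted p under 0.05; KLRD1, an NK cell receptor chain, was at 0.67 ± 0.36 and CD2, an adhesion molecule of T cells, at 0.60 ± 0.65. KLRD1 passed with an offset of 10 (limma adjusted p = 0.0403), with the processed signals, where it was at 1.89 (0.0305), with the mean of its probes (0.0346), in the robust fit (0.0327) and without horse 3 (0.0452). GZMB, a protease of cytotoxic cells, was at -0.31 ± 2.17, with its highest processed signal, 11910, in the sarcoid of horse 2. The summed signal of those 3 was between 873 and 12530 in the sarcoids and between 1777 and 2945 in the skin. The part of these cell types in the IL10 difference was not tested, and in bulk tissue more cells of a type and more RNA per cell cannot be told apart. B cell and neutrophil genes of the lists had no probe that could be named here, and neither did any of the other 10 genes of the IL-10 list, its receptor chains IL10RA and IL10RB included.

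IL18 had a bright spot on every array. Its processed signal was 2461, 2188, 1262 and 3153 in the sarcoids of horses 1 to 4, against 7313, 4886, 3788 and 2290 in the skin. Horse 4 had both the brightest sarcoid and the dimmest skin, and without that horse the tissues did not overlap. The log2 ratios were -1.49, -1.14, -1.65 and 0.35, with a mean of -0.98 ± 0.91 (SD, n = 4), and the gene did not pass (limma adjusted p = 0.132). The 95% interval of the mean, from -2.43 to 0.47, spans both a large deficit and a small excess in the sarcoids. Without horse 4 the log2 ratio was -1.42 and IL18 passed (limma adjusted p = 0.0159), whereas leaving out any of the other 3 gave adjusted p-values from 0.294 to 0.347. With arrays centred on their medians and no loess IL18 also passed, at -1.27 (limma adjusted p = 0.0432).

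CASP1, which encodes caspase 1, the protease that activates IL18, was the only other gene of the IL-18 list with a named probe, of 13. Its processed signal was 802, 481, 509 and 1150 in the sarcoids, against 1580, 950, 1468 and 1371 in the skin, and the gene was lower in the sarcoids (limma adjusted p = 0.0375), with a log2 ratio averaging -0.92 ± 0.47 over the 4 horses (SD). The ratio was below 0 in all 4 horses and nearest to 0 in horse 4, at -0.39. Leaving out horse 1, 2 or 3 ended the CASP1 call (limma adjusted p = 0.12, 0.12 and 0.0773), as did the processed signals (0.0553), no filter on dim probes (0.0528), normexp fitted on all spots (0.197) and separate channels with no replicate block (0.0961). Of the keratinocyte genes, KRT15 had log2 ratios of -5.08, -4.99, -5.20 and -5.22 in horses 1 to 4. S100A7, the other keratinocyte gene measured, had -5.30, -4.67, -5.02 and -5.51. The summed processed signal of both genes was between 1540 and 4561 in the sarcoids and between 51790 and 191000 in the skin. The part of epidermal cells in the IL18 values was not tested.

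TNF, the prototype of its cytokine family, had a processed signal of 8013, 8399, 5853 and 1926 in the sarcoids, against 7178, 6935, 6747 and 4638 in the skin. Horses 1 and 2 had slightly more signal in the sarcoid, horse 3 slightly less, and horse 4 clearly less. The log2 ratios were 0.19, 0.24, -0.27 and -1.29, with a mean of -0.28 ± 0.71 (SD, n = 4; limma adjusted p = 0.559), and the 95% interval of the mean ran from -1.41 to 0.85. The direction of the mean rested on horse 4, without which it was 0.05 (limma adjusted p = 0.855).

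**Figure D3:**
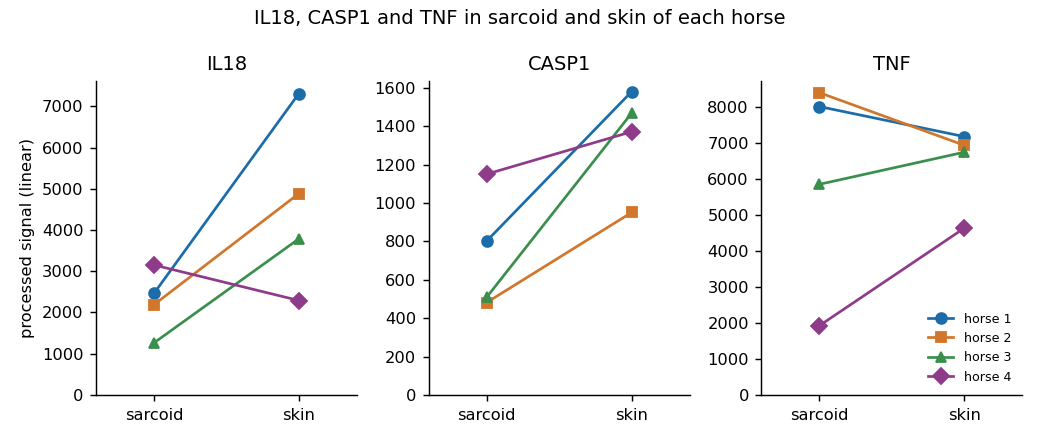
Processed signal (linear scale, y axis) of IL18, CASP1 and TNF in the sarcoid and the skin, with a line for each horse. Horse 4 crosses the other 3 horses for IL18, with 3153 in the sarcoid and 2290 in the skin, and has the lowest TNF signal in both tissues, with 1926 in the sarcoid and 4638 in the skin.

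IL6, which drives the acute phase response and acts on B and T cells, was dim. Its processed signal was 83.6, 45.9, 26.4 and 92.3 in the sarcoids, against 43.9, 4.31, 18.0 and 53.4 in the skin, and it was well above background on 3 of 4 arrays in each tissue, missing in the sarcoid of horse 3 and in the skin of horse 2. The log2 ratio was above 0 in all 4 horses, at 0.38, 0.45, 0.08 and 0.23, with a mean of 0.28 ± 0.17 (SD, n = 4). Before background subtraction, the spot signal of horse 4 was 109.5 in the sarcoid and 156.5 in the skin. The test was not passed (limma adjusted p = 0.181), nor was it under any of 15 alternatives that could be run, where the adjusted p was between 0.0718 and 0.542. By processed signals the mean log2 ratio was 1.42 ± 1.34, most of it from horse 2, at 3.41, where the skin spot was not well above background. The receptor IL6R stood at -0.34 ± 1.05. SOCS3, a feedback inhibitor that IL6 signalling induces, was at -0.07 ± 0.11, and neither gene passed. SOCS3 was dim too, with processed signals from 36.56 to 48.59 in the sarcoids and from 39.93 to 53.54 in the skin. Its spots were well above background on all 4 arrays in each tissue.

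The helper T cell cytokines IFNG and IL4 lay near the signal of the negative control spots, whose probes match no horse transcript. Those spots had a median signal, before background subtraction, of 65 to 71 in the sarcoid channel and 53 to 59.5 in the skin channel. The 3 IFNG probes had sarcoid spots between 71 and 102, against skin spots between 56 and 100. Of 12 spots in each channel, 4 were well above background in the sarcoids and 3 in the skin. Probe A_69_P001506 was the only one that could be tested, with processed signals of 35.9, 22.3, 20.8 and 33.9 in the sarcoids, against 48.5, 13.1, 27.7 and 30.3 in the skin. The tissues overlapped, and the log2 ratio was 0.04 ± 0.10 (SD, n = 4; limma adjusted p = 0.848; 95% interval from -0.12 to 0.19). Its direction turned with no background correction (-0.0042) and with normexp fitted on all spots (-0.01). Probe A_69_P001507 was well above background in the sarcoids of horses 1 and 3 and in none of the 4 skin samples. Its log2 ratio was 0.20 ± 0.26, from -0.04 in horse 4 to 0.56 in horse 3, and it was not tested. The third probe, A_69_P001508, was not well above background in any of its spots.

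For IL4, 16 of the 17 probes were not well above background on any array in either tissue. Sarcoid spots had signals between 67 and 99, against 49 to 89.5 in skin spots, before background subtraction. The exception was A_69_P003022, with processed signals of 34.7, 31.7, 61.5 and 9.72 in the sarcoids, against 19.96, 13.4, 53.5 and 4.68 in the skin. It was well above background in the sarcoids of horses 1 and 3 and in the skin of horse 3, so horse 3 was the only one with a measured signal in both tissues, and there the log2 ratio was 0.10. No IL4 probe was kept for the test. The probe means of the log2 ratio ran from -0.02 to 0.18 with a median of 0.09, beside a 5th to 95th percentile from -0.15 to 0.03 for the negative controls. Of the 17 probe means 4 lay within that range and 13 above it, 5 of them above the highest control at 0.107. Most IL4 sarcoid spots were nonetheless above the 95th percentile of the negative controls, 15, 16, 16 and 17 of the 17 probes in horses 1 to 4, against 4, 6, 6 and 15 of them in the skin. With no filter on dim probes IL4 could be tested through A_69_P003022, at 0.18, and it did not pass (limma adjusted p = 0.221). The 17 probes share 1 target, and with 3 spots well above background the files give no measured IL4 level in most samples.

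**Figure D4:**
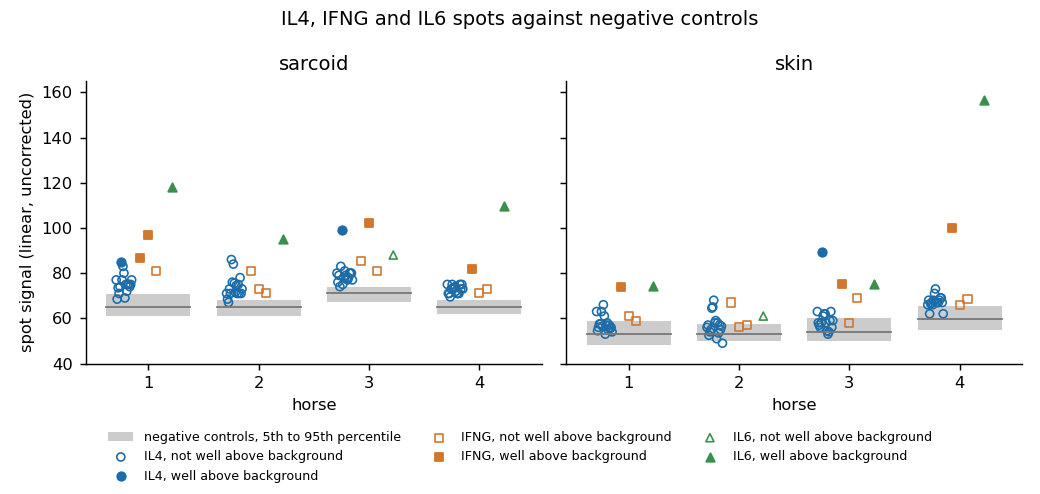
Spot signal before background subtraction (linear scale, y axis) of the IL4, IFNG and IL6 probes in each horse, sarcoid on the left and skin on the right; filled markers are spots well above background, and the grey band is the 5th to 95th percentile of negative control spots with its median. Most IL4 and IFNG markers are open and lie at or just over the band, and 3 of 4 IL6 markers in each panel are filled.

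The wider pathways were read from 7 lists of ligands, receptors and targets, 102 genes without the 6 cytokines, of which 18 could be tested by name. Of the 18, 2 were higher, 1 lower and 15 did not pass, while 7.69% of the 845 tested targets with a gene symbol were higher and 12.7% lower. In the lists, 7 genes had an unadjusted p under 0.05 in limma, 6 higher and 1 lower. The median log2 ratio of the 18 was 0.06, beside -0.07 over the targets with a symbol and 0.00354 over all targets. Another 5 were on the array without a probe that was kept: IL2, IL12B, IL17A, CSF2 and TSLP, all of them cytokines.

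In the interferon gamma list, 4 of 18 genes were tested, 1 was higher and 3 did not pass, with a median log2 ratio of 0.80. The chemokine CXCL9, which interferon gamma induces and which attracts T cells, was higher in the sarcoids at 1.41 ± 0.80 (SD, n = 4; limma adjusted p = 0.0403). That is the brighter of its 2 kept probes. The other was at 0.64, and the mean of both was 1.03 (limma adjusted p = 0.0465). At the brighter probe the processed signal was 1036, 109, 100.7 and 574 in the sarcoids, against 49.9, 10.8, 28.5 and 84.6 in the skin. Every sarcoid thus exceeded every skin sample, and 1 skin spot was not well above background. The related chemokines CXCL10, at 1.14 ± 0.83, and CXCL11, at 0.46 ± 0.14, were above 0 in all 4 horses and did not pass (limma adjusted p = 0.0771 and 0.0548). Over all their kept probes the means ran from 0.75 to 1.14 for CXCL10 and from 0.37 to 0.46 for CXCL11. CXCL11 was well above background in all 4 sarcoids but in 1 of 4 skin samples, so its ratio rests on skin spots at background and is no measured fold. With the processed signals CXCL9 and CXCL10 passed (limma adjusted p = 0.00487 and 0.0185), as did CXCL10 with an offset of 10 (0.035) and in the robust fit (0.047). CXCL11 passed with the processed signals (limma adjusted p = 0.00315), an offset of 10 (0.0179), median centring (0.0313) and no filter on dim probes (0.0388). It also passed in the robust fit (0.00942) and with separate channels and the horse as a replicate block (0.0327), on the same skin spots at background. The call of CXCL9 was lost in each of the fits with a horse left out (limma adjusted p from 0.0502 to 0.121), without background correction (0.0525), with normexp fitted on all spots (0.334), with no filter on dim probes (0.0641) and with the channels fitted separately (0.0528 with the horse as a replicate block and 0.147 without it).

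In the TNF list, 3 of 17 genes were tested, 1 was higher and 2 did not pass. TNFAIP6, a hyaluronan-binding protein named for its induction by TNF, was higher in the sarcoids, with a processed signal of 7895, 2284, 5717 and 1658, against 897, 359, 921 and 304 in the skin. Its log2 ratio was 2.30 ± 0.36 (SD, n = 4; limma adjusted p = 0.0013), and TNF itself had no common direction in the same horses. The call was lost with normexp fitted on all spots, at 1.69 (limma adjusted p = 0.124). The death ligands TNFSF10 and FASLG, at 0.11 ± 1.34 and -0.01 ± 0.19, did not pass.

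None of the 4 tested genes of the IL-4 list passed in limma, 1 at an unadjusted p under 0.05. That was IL4R, the receptor chain shared by IL4 and IL13, with log2 ratios of 0.91, 1.15, -0.04 and 0.83 in horses 1 to 4 and a mean of 0.71 ± 0.52 (SD, n = 4; limma adjusted p = 0.0918). It passed without horse 3 (0.96, limma adjusted p = 0.0293). FCER2, the low-affinity receptor for immunoglobulin E, was at -0.79, -1.09, 1.19 and -1.47, and its sarcoid spots were well above background in 2 of 4 horses, so that its ratios rest in part on undetected spots. Without horse 3 its adjusted p in limma was 0.0365, on those same spots. The type 2 cytokines IL13 and IL5 were at 0.01 ± 0.14 and -0.08 ± 0.43. Mast cell genes, which accompany type 2 responses, did not pass either: of 7 genes 3 were measured, with FCER1A (a chain of the high-affinity receptor for immunoglobulin E) between -3.10 and 0.41 and TPSB2 (a tryptase) between -1.79 and 1.08 over the horses, and 0 had an unadjusted p under 0.05. Of the 4 tested among 20 other T helper and regulatory genes, 0 passed in limma and 1 had an unadjusted p under 0.05. IL15, which sustains NK and memory T cells, was above 0 in all 4 horses at 1.41 ± 1.13 (limma adjusted p = 0.0915), and it passed with the processed signals (0.0423). TGFB1, an anti-inflammatory and fibrogenic factor, was at 0.84, 0.77, 0.92 and -0.38 in horses 1 to 4 (limma adjusted p = 0.218), and it passed without horse 4 (0.84, limma adjusted p = 0.0272).

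**Figure D5:**
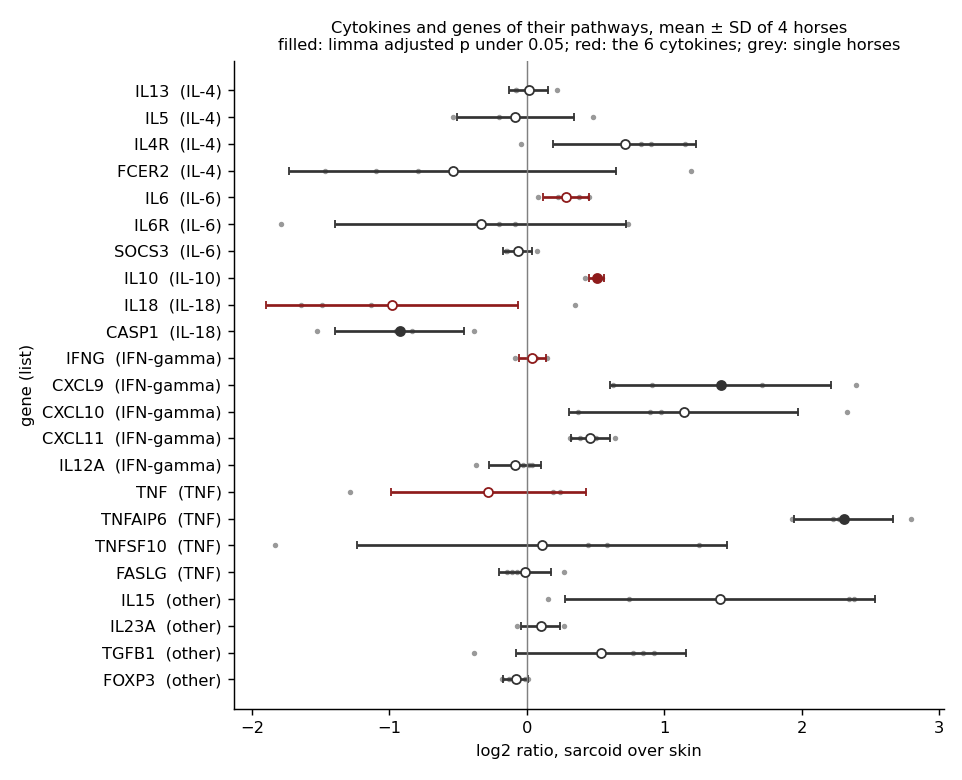
Mean log2 ratio of sarcoid over skin ± SD of 4 horses (x axis) for the 5 tested cytokines and 18 genes of their lists (y axis), with single horses in grey and filled symbols where the limma adjusted p was under 0.05. IL10, shown by its brightest probe, has the smallest error bar of the called genes, at 0.51 ± 0.06, and IL18 has the widest of the 5 cytokines, at -0.98 ± 0.91.

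The genes whose 4 log2 ratios lay nearest to those of each cytokine were found among 844 named genes by Euclidean distance over the 4 horses. For IL10 they were CCDC90B, TICAM2 (an adaptor of Toll-like receptor 4) and ECATH-2 (a horse cathelicidin), at distances of 0.292, 0.293 and 0.301; TICAM2 had a mean log2 ratio of 0.58 (limma adjusted p = 0.0267). For IL18 they were RXFP2, RARB and PRKAG2, at distances of 0.605 to 0.744, each with its value nearest to 0 or above it in horse 4. For TNF they were MSRB1, WWP2 and ACTR1A, each at or below -1.17 in horse 4. For IL6 they were PDE1B, CYP2C92 and RASSF4, and for IFNG they were PLA2G2A, IL23A and DPRX. With 4 horses the likeness is a description of these arrays.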

How the data were processed

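RNA from 4 sarcoids and from distant skin of the same 4 horses was measured on 4 two-colour arrays; per the labels, 100 ng of RNA was labelled, after storage at -80 °C. In 3 samples the free-text description mentions embryonic stem cells, unlike every other field; the tissue, dye and horse fields were followed. The deposited files hold spot and local background intensity values per channel. They also hold processed intensity values, which per the file headers had background taken off and the dyes scaled; the submitters' processing notes name Agilent Feature Extraction, version 11.5.1.1. The deposited log10 ratio is Cy5 over Cy3, and the authors' value table holds the same log10 ratio (largest difference 0; column medians 0, -0.00262, -0.0118 and 0). Other deposited columns are flags of 0 or 1, per the file headers.

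Outlier spots (non-uniform feature or background, or feature population, in either channel) were left out first. Then normexp (offset 50) and within-array loess, in which controls had weight 0, were run with limma 3.58.1 (R 4.3.3). This order was taken from earlier processing of these data. The files give a median signal per spot. A probe was kept if flagged well above background in 3 or more samples of either tissue, the brightest kept probe on average stood for its target, and 4 log2 ratios (sarcoid over skin) were set against 0 by limma's moderated test (lmFit, eBayes; two-sided), adjusted by Benjamini-Hochberg over 19607 targets or 33864 probes. The pairing is by horse, per the labels, and lies inside the ratio. Intervals of means use Student's distribution over 4 horses.

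The members and lists were chosen with earlier results of these data known. Named genes are the 6 cytokines, ACTB and GAPDH, of each list the called genes and the 2 largest differences that did not pass, and the 3 nearest patterns. IL13, IL5, GZMB and the 5 cytokines without a kept probe were added after their values were seen. Only 5.35% of the probes have a gene symbol, through a RefSeq gene table of assembly TB-T2T. The array design uses another build, so no coordinates are given. Sequences of the probes were not used here. On simulated ratios with the spread of the 19607 targets, limma called 32% of 100 targets given a log2 change of 1. It also called 71% of 100 given a change of 2, and 3 that had none. In the measured data 15.7% of the 19607 targets were called, a far larger share than was changed in the simulation. The Benjamini-Hochberg adjustment depends on how many targets change, so the simulated percentages do not describe what share of changes the reported fit found. Alternatives covered outlier spots, background, normalization, filter, probe choice, model and each horse left out.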

Additional observations from a re-analysis of the deposited data

Results flagged for a closer look

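Among 66 sets of 4 log2 ratios, 7 had 1 horse far from the other 3, its gap to the nearest taking more of the whole range than Dixon's 95% limit allows; chance flags about 1 in 20 sets. The IL4 probes A_69_P001534 and A_69_P004813 had horse 2 high, at 0.17 and 0.30, where none of their spots was well above background. FASLG had horse 1 high at 0.27 and TGFB1 had horse 4 low at -0.38. Of the fibroblast genes, BGN and VIM had horse 1 high at 3.98 and 2.29, and SPARC had horse 4 low at 1.20. IL18 and TNF, whose horse 4 stood apart, were under that limit.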

How the results depend on the processing

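IL10 stayed above 0 under all 16 alternatives and passed under 10 of them. With median centring it passed only just (limma adjusted p = 0.04997), with 2 of its 5 probes called. IL18 stayed below 0 under all 16 and passed under 2. With normexp fitted on all spots and outliers dropped after it, there were 93 higher and 147 lower targets, 229 probes higher and 391 lower, and 0 list genes were called in either direction by limma (2 higher and 1 lower at an unadjusted p under 0.05). IL10 was then at 0.27 and no longer passed, IL4 was at 0.041 and IFNG reversed to -0.0122. With outlier spots kept throughout the counts were 94, 147, 230 and 391, again 0 list genes, with the same values of IL10 (0.27), IL4 (0.041) and IFNG (-0.0122). Without background correction IFNG was at -0.0042 and 1 list gene was higher. With an offset of 10, IL4 was at 0.39 and 4 list genes were higher. With Agilent's processed signals 1887 targets and 3618 probes were higher, IL4 was at 0.82, and 5 list genes were higher and 0 lower; 48.2% of the target calls were then on the higher side, against 37.1% in the reported fit. With median centring 614 targets and 1360 probes were higher, 18.7% of the target calls lay on the higher side, IL4 was at 0.37 and IL18 passed at -1.27. With no filter on dim probes 0 list genes were lower in limma, and with the robust fit 4 were higher. The cause of these shifts was not tested. With the channels fitted separately and no replicate block 1 list gene was higher and 0 lower; with the horse as a replicate block there were 1572 targets higher and 2521 lower, and IL10 passed either way (limma adjusted p = 0.0118 with the block and 0.0448 without). Leaving out each horse in turn gave 389 to 821 targets higher and 1071 to 1412 lower, 856 to 1619 probes higher and 2151 to 2759 lower, and 1 to 2 list genes higher and 0 to 1 lower; IL10 was between 0.49 and 0.53 and passed in none of these fits, IL18 was between -1.42 and -0.76 and passed without horse 4, and TNF was between -0.45 and 0.0546, above 0 only without horse 4. With the filter on all 4 arrays IL6 and IFNG had no tested probe. Signals near background limit IL4, IFNG and IL6. The IL10 spots were dim as well, though all were well above background, and the size of the IL10 ratio moved with the background treatment.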
